A study of Mus musculus with 42 samples.

Results

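The Cyp1 family comprised the 3 mouse cytochrome P450 genes Cyp1a1, Cyp1a2 and Cyp1b1, which were picked by gene symbol from the 20668 named genes with a probe on the array. Each of them had 1 probe of the 55681, so that no second probe was at hand to check any of the 3. Their messenger RNA was read on arrays of lung, liver and forestomach from male Muta™Mouse of about 11 weeks of age, which carry a bacterial lacZ reporter transgene for mutation assays. The polycyclic aromatic hydrocarbon benzo(k)fluoranthene, written BkF here, was given in olive oil by daily gavage for 28 days, and tissues were taken 72 hours after the last dose. The vehicle group (D0) received olive oil alone, and the low- (D1), medium- (D2) and high-dose (D3) groups received 25, 50 and 100 mg BkF/kg-bw/day. The groups held 4, 3, 4 and 3 mice in forestomach, 4, 3, 4 and 4 in lung, and 4, 2, 3 and 4 in liver, in the order D0 to D3, from 15 mice in all. The RNA came from random sections of whole tissue, and Muta™Mouse was the single strain used, so every group including the vehicle carried the transgene.

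CYP1 enzymes are membrane-bound monooxygenases that oxidise polycyclic aromatic hydrocarbons, a step that can detoxify them or turn them into epoxides that bind DNA. Their genes are classical targets of the aryl hydrocarbon receptor (AhR), which binds such compounds in the cytoplasm, pairs with ARNT in the nucleus and docks at xenobiotic response elements upstream of its target genes. Cyp1a2 is known as the member with a high basal level in liver, Cyp1a1 as the member that is low in most tissues until the receptor is engaged, and Cyp1b1 as a largely extrahepatic member.

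The sequence just upstream of the 3 genes is shown because all 3 are regarded as targets of 1 receptor, while their levels in these arrays differed. The 250 bases before each transcription start were taken from RefSeq on the GRCm38.p6 assembly, at chr9:57697363-57697612 on the forward strand for Cyp1a1, chr9:57683656-57683905 on the reverse strand for Cyp1a2 and chr17:79715062-79715311 on the reverse strand for Cyp1b1. They are written 5′ to 3′ on the strand of the gene, and capitals mark the core of the response element, GCGTG, or its reverse complement CACGC.

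Cyp1a1: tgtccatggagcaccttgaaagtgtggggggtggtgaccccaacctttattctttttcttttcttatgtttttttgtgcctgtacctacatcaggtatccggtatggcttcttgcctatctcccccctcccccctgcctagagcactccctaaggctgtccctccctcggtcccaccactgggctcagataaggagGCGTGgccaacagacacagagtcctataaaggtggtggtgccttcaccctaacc

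Cyp1a2: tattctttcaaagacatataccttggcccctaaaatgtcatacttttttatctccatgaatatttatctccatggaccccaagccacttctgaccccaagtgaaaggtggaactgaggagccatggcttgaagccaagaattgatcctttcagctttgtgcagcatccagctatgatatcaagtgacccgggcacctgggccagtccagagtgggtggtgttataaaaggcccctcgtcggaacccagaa

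Cyp1b1: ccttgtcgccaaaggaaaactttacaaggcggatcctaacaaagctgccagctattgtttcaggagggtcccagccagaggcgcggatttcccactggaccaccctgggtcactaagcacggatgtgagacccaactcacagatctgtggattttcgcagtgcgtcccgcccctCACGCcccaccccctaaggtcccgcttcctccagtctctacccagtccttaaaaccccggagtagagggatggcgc

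The core GCGTG was searched on both strands and lay 54 bases before the start of Cyp1a1 and 76 bases before the start of Cyp1b1, where it read on the reverse strand. It was found nowhere in the window of Cyp1a2. The longer form TNGCGTG, which contains the core, was found in none of the 3 windows. Across 32851 RefSeq promoters of the same length, 28.2% held the core and 4.1% held the longer form, so a match to the core is common, and it says nothing on whether the receptor binds there.

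Each array carried the tissue RNA in the red channel (Cy5) and a universal reference RNA pooled from 11 mouse cell lines in the green channel (Cy3). A level below is the log2 ratio of red over green after normalisation within the array, and is written with its SD over mice. Because the reference holds each gene at its own level, the ratio of 1 gene cannot be ranked against that of another, whereas differences between samples can be compared. A change is the difference of 2 group means in log2 units, with its standard error (SE), and a probe was called when limma's p, adjusted by Benjamini-Hochberg over all probes tested in the tissue, was at most 0.05 and the change was at least 1.5-fold. Tissue was measured in bulk, so that more transcript per cell and more cells of an expressing type cannot be told apart. The comparisons ask at which dose and in which tissue the members responded to BkF, and within a tissue all 3 doses are set against 1 shared vehicle group.

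The tissue labels were borne out by marker genes. All 5 lung markers and all 5 liver markers were well above background in every array of their own tissue, as were 4 or 5 of the 5 squamous epithelium markers in forestomach. Other tissues were mixed into some samples. Markers of glandular stomach (8 genes) were at a mean log2 ratio of 0.63 to 6.45 in forestomach, and relative to the median array they lay between -5.24 and -3.97 in mice 1, 4, 11, 16 and 20, while the other forestomach samples lay between -0.72 and 0.58. Markers of skeletal muscle (5 genes) were at 4.75 in the lung of medium-dose mouse 12, those of squamous epithelium at 3.25 and those of macrophages (2 genes) at 4.11, against at most -0.18, -0.27 and 2.19 in the other lungs. The lung of low-dose mouse 7 had glandular stomach markers at 4.07, with 8 of 8 well above background, against 0.11 to 1.23 in the other lungs, and the highest heart muscle (4.54) and white fat (4.71) values. Skeletal muscle markers were at 3.86 in the liver of high-dose mouse 17. White fat markers (3 genes) ranged from -0.11 to 0.05 in vehicle livers and from 0.09 to 3.74 in high-dose livers. Heart muscle markers (3 genes) varied within every lung group, from 0.29 to 3.45 at D0 and from 2.54 to 4.04 at D3.

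Without BkF, each member had its own pattern across the tissues. Cyp1a1 transcript was well above background in 4 of 4 vehicle lungs, in 0 of 4 livers and in 1 of 4 forestomachs. Its log2 ratios in vehicle lung were 3.29, 2.35, 2.09 and 2.96 in mice 1 to 4, while those in liver were 0.23, -0.06, -0.00 and -0.09 and those in forestomach 0.60, 0.38, -0.01 and -0.39. In this ratio all 4 lungs lay above all other vehicle samples. With the red channel alone, scaled to the 75th percentile of each array, lung mice 2 (-0.31) and 3 (-1.18) lay below forestomach mouse 1 (-0.18). The sample-channel signal in lung was at least 1.97-fold that in liver, counting each liver array at no less than the lowest signal that passed as well above background. Such bounds are the lower of those under 2 scalings of the channel, which was the one with each array scaled to its 75th percentile in every case below. The log2 ratio of Cyp1a1 in lung was above that in liver, where it reads background, by 2.65 (SE 0.94, limma adjusted p = 0.016) and above that in forestomach by 2.53 (SE 0.94, limma adjusted p = 0.025). The second of these was not called without lung mouse 1 (2.32) or forestomach mouse 4 (2.35). Differences between whole tissues were widespread, since 40.8% of probes were called between vehicle lung and liver, 33.5% between lung and forestomach, and 37.5% between liver and forestomach. All liver arrays lay on slides, a scan and a software version of their own, so that liver and these cannot be told apart in differences of level from the other tissues.

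Cyp1a2 was a liver transcript. Its log2 ratios in the vehicle livers were 6.11, 6.42, 6.26 and 6.34, with raw red signals of 10783 to 14790.5 intensity units. In lung the probe was well above background on 2 of 15 arrays and in forestomach on 0 of 14, with log2 ratios between -0.30 and 0.58 over both tissues. The liver level exceeded the forestomach level at least 136-fold, and the log2 ratios differed by -6.33 for lung against liver (limma adjusted p = 6.0e-30) and by 6.30 for liver against forestomach (limma adjusted p = 1.0e-29), each with an SE of 0.13 and with the values outside liver at background.

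Cyp1b1 was detected in all vehicle lungs and forestomachs and in 0 of 4 vehicle livers. The log2 ratios were -1.93, -2.64, -2.01 and -1.42 in lung, -0.78, -1.04, -0.94 and -0.59 in forestomach, and -2.73, -2.78, -2.69 and -2.65 in liver. The values of the 3 tissues did not overlap, although lung and liver nearly met. Forestomach signal was at least 2.76-fold that of liver, and lung signal at least 1.52-fold. Liver was below forestomach (a difference of -1.88, SE 0.61, limma adjusted p = 0.010), whereas the differences of lung from liver (0.71, SE 0.61, limma adjusted p = 0.34) and from forestomach (-1.16, SE 0.61, limma adjusted p = 0.11) did not pass the test. With the background-subtracted ratio of the scanner software lung was above liver by 3.82 (limma adjusted p = 2.4e-05), and with median centring the difference of liver from forestomach was not called (-0.62).

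**Figure D1:**
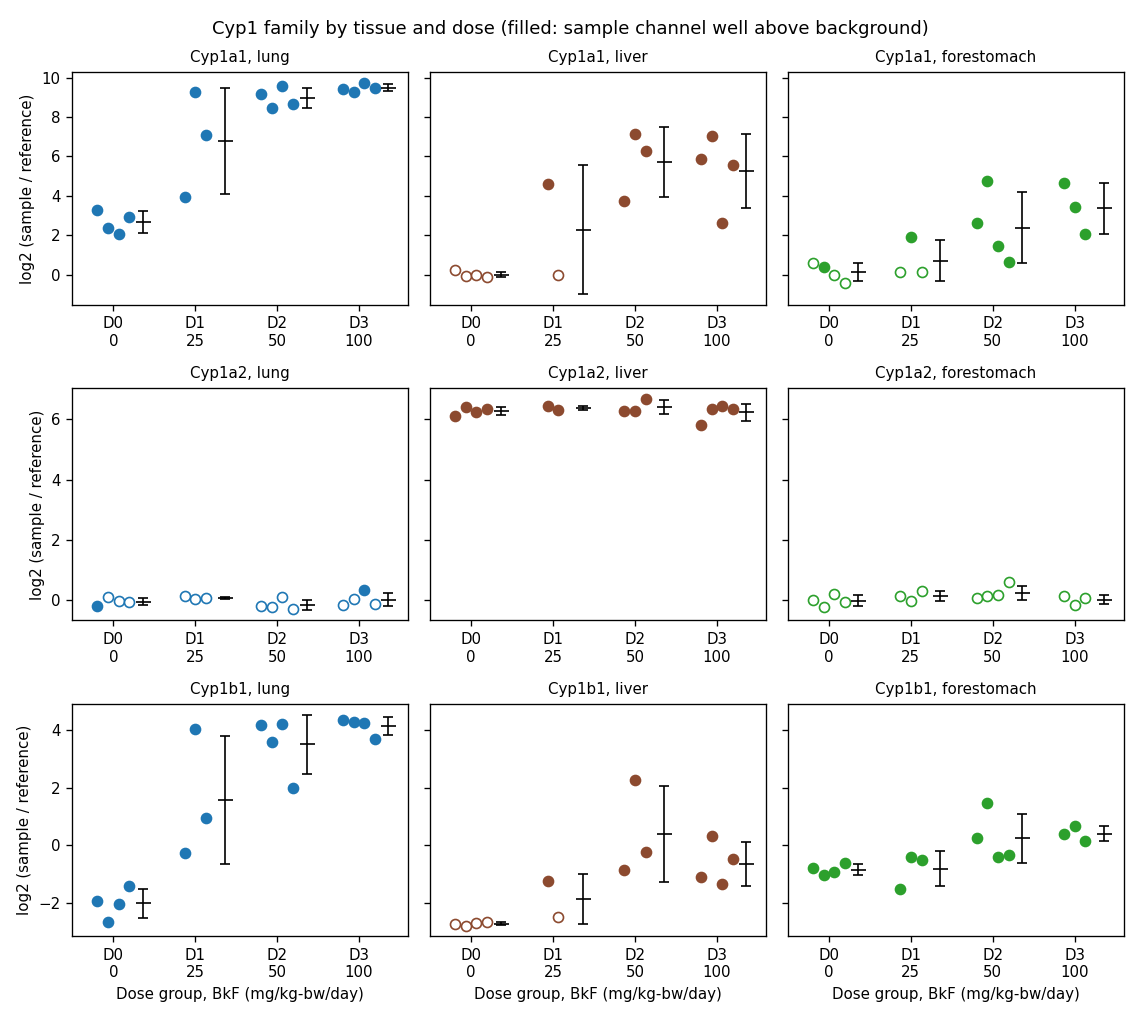
Log2 ratio of sample over reference for Cyp1a1, Cyp1a2 and Cyp1b1 in lung, liver and forestomach against the dose group (D0 to D3). Each point is 1 mouse, filled where the sample channel was well above background and open where it was not, and the bar beside each group is its mean with the SD. Cyp1a1 lies above the vehicle mice at D2 and D3 in all 3 tissues and is spread widely at D1 in lung and liver, while the ratio of Cyp1a2 in liver stays near 6.3 in every group.

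In lung, BkF was followed by a rise of Cyp1a1 and Cyp1b1 at the medium and the high dose, and by a wide spread between mice at the low dose. Cyp1a1 was at 2.67 ± 0.55 at D0 (n = 4). At D1 it stood at 3.96 in mouse 7, 9.28 in mouse 8 and 7.10 in mouse 9. The D2 values were 9.14, 8.46, 9.57 and 8.66 in mice 11, 12, 13 and 15, and the D3 values 9.43, 9.29, 9.73 and 9.47 in mice 16, 17, 19 and 20. All 11 dosed lungs lay above all 4 vehicle lungs. Mouse 7 was closest to the vehicle group, and mouse 8 lay inside the range of the D2 mice. Raw red signals ran from 232 to 340 intensity units in vehicle lungs and from 10074 to 46007 in high-dose lungs, with no saturated spot.

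Cyp1a1 rose by 6.28 at D2 (SE 0.75, 78.0-fold, limma adjusted p = 0.0091) and by 6.81 at D3 (SE 0.75, 112-fold, limma adjusted p = 0.0034). The share of all tested probes called in lung was 0.0153% (5 of 32697) at D2 and 0.0336% (11 of 32697) at D3, and by p-value Cyp1a1 was the second of all probes in both. At D1 the change was 4.11 (SE 0.80), the 95% interval ran from 2.39 to 5.83, and limma's adjusted p was 1.00. No probe was called at D1 (0% of 32697), although 577 had an unadjusted p under 0.05, and Cyp1a1 was the fourth of them by p. Leaving out mouse 7 gave a D1 change of 5.52 for Cyp1a1 with a limma adjusted p of 9.0e-04, the single probe called. It was the 1 call in 7 fits that left out 1 array, which gave 2.86 (without mouse 8) to 5.52. That lung is the one with the glandular stomach, heart muscle and fat markers given above, whose part in the D1 values was not tested.

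Cyp1b1, a CYP1 enzyme that also hydroxylates oestradiol, followed Cyp1a1 closely in lung. From -2.00 ± 0.50 at D0 (n = 4) it stood at -0.26, 4.04 and 0.94 in low-dose mice 7, 8 and 9. The D2 mice had 4.18, 3.60, 4.22 and 2.00, and the D3 mice 4.37, 4.27, 4.24 and 3.69. Again all 11 dosed lungs exceeded all vehicle lungs, mouse 8 was the highest and mouse 7 the lowest at D1, and mouse 15 was the lowest at D2. Cyp1b1 rose by 5.50 at D2 (SE 0.70, 45.3-fold, limma adjusted p = 0.013) and by 6.14 at D3 (SE 0.70, 70.6-fold, limma adjusted p = 0.0037), the third probe by p at both doses. Over the 15 lungs, the log2 ratios of Cyp1a1 and Cyp1b1 had a Pearson correlation of 0.98, given as a description because the dose groups and the arrays are shared.

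Between D2 and D3 neither gene passed the test. Cyp1a1 differed by 0.52 (95% interval -1.07 to 2.11) and Cyp1b1 by 0.64 (95% interval -0.86 to 2.14), and no probe of the tissue was called (0%, with 2110 at an unadjusted p under 0.05). With dose as a linear term, Cyp1b1 rose by 5.80 per 100 mg/kg-bw/day (SE 0.97, limma adjusted p = 0.045), and the trend of Cyp1a1 was 6.40 (95% interval 4.08 to 8.73, limma adjusted p = 0.053). For this test 0.0367% of probes (12 of 32697) were called. The D2 call of Cyp1a1 was lost without mouse 2, 11 or 13 (limma adjusted p up to 0.068). That of Cyp1b1 was lost without mouse 1, 2, 11 or 13 (limma adjusted p up to 0.075). Of 9 other settings, 6 kept the D2 call of each gene. The trend of Cyp1b1 was called in 6 of 15 fits that left out 1 array and in 2 of 7 other settings. With the slide as a block this trend was not called (5.86, limma adjusted p = 0.057). The D3 call of Cyp1b1 held in all 8 fits that left out 1 array and in all 9 other settings. The D3 call of Cyp1a1 was lost only with the ratio of the scanner software (4.37, limma adjusted p = 0.068).

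The dose groups of lung sat in columns of their own on the slides, so that dose and position on the slide cannot be told apart in that tissue. In liver and forestomach dose followed the column as well, apart from the liver of mouse 20 and the forestomach of mouse 2. Lungs lay in row 1 of their slides and forestomachs in row 2, so that these tissues and the row cannot be told apart. Each of the 4 lung slides held 1 D0 and 1 D3 lung, and within them Cyp1a1 was higher at D3 by 6.14, 6.93, 6.52 and 7.63 and Cyp1b1 by 6.29, 6.91, 5.11 and 6.25. In the lung of mouse 12, which held muscle, squamous and macrophage markers, Cyp1a1 was the lowest of its group. Leaving out any 1 array gave a D2 change of 6.08 to 6.49.

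In liver, Cyp1a1 moved from below detection at D0 to well above background in all medium- and high-dose mice. Vehicle values were 0.02 ± 0.14 (n = 4). Low-dose mouse 8 stood at 4.61 and low-dose mouse 9 at -0.02, no different from the vehicle livers. The D2 mice 11, 12 and 13 had 3.73, 7.15 and 6.26, and the D3 mice 16, 17, 19 and 20 had 5.90, 7.05, 2.62 and 5.55. All 7 livers at D2 and D3 lay above the vehicle livers, mouse 19 being the lowest of them. Against the detection limit, the sample-channel signal was at least 21.3-fold higher at D2 and at least 16.8-fold higher at D3, with limma adjusted p-values of 0.11 and 0.13 for the changes of 5.69 (SE 1.12) and 5.26 (SE 1.03). The change at D1, 2.28 (SE 1.26), rested on mouse 8 alone, for without it the value was -0.04.

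Cyp1b1 in liver also came into detection at the upper doses. It stood at -2.71 ± 0.06 at D0 (n = 4), and at -1.23 and -2.47 in low-dose mice 8 and 9. The D2 values were -0.86, 2.27 and -0.21 and the D3 values -1.11, 0.33, -1.35 and -0.46, all above the 4 vehicle livers. The sample-channel signal was at least 7.19-fold higher at D2 and at least 3.41-fold higher at D3. Changes were 3.11 at D2 (SE 0.60, limma adjusted p = 0.11) and 2.07 at D3 (SE 0.56, limma adjusted p = 0.34). Both genes had passed the filter on dim probes in liver only because the dosed groups were bright, so that no count over the members that passed is given.

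The liver calls give the background for these values. At D2 0.0427% of probes (13 of 30460) and at D3 0.0525% (16 of 30460) were called, at D1 and for the trend 0%, with 468 and 2623 probes at an unadjusted p under 0.05. Neither Cyp1a1 nor Cyp1b1 was among the called probes. Of 7 fits that left out 1 array at D0 or D2, 1 called each gene at D2, the fit without mouse 11, the lowest of its group for both (6.68 and 3.74), and of 8 such fits at D3, 1 called Cyp1a1, the fit without mouse 19, again the lowest (6.15). A fit of the D0 and D3 livers alone called Cyp1a1 (5.26, limma adjusted p = 0.024) and Cyp1b1 (2.07, limma adjusted p = 0.029) at D3. With the scanner software's ratio the changes at D2 and D3 were 9.34 and 9.08 for Cyp1a1 and 6.32 and 5.16 for Cyp1b1, none of them called. All of these start from vehicle livers at background. From D2 to D3 the means differed by -0.43 for Cyp1a1 (95% interval -2.84 to 1.98) and by -1.04 for Cyp1b1 (95% interval -2.34 to 0.25), and 0% of probes were called (1079 at an unadjusted p under 0.05).

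High-dose mouse 17, with 7.05 the highest D3 liver for Cyp1a1, was also the liver with the most muscle and fat marker RNA. White fat markers were above the vehicle range in all 4 D3 livers, and those of fibroblasts and smooth muscle (4 genes) ran from -2.62 to -0.85 at D2 and from -2.66 to -0.77 at D3 against -2.78 to -2.62 at D0. The latter were highest in mice 12 (-0.85), 17 (-0.77), 20 (-1.89) and 13 (-2.10), where Cyp1b1 was 2.27, 0.33, -0.46 and -0.21, and lower in mice 19 (-2.43), 11 (-2.62) and 16 (-2.66), where Cyp1b1 was -1.35, -0.86 and -1.11. Thus the 4 medium- and high-dose livers with the highest Cyp1b1 were those with the highest fibroblast and smooth muscle markers. The part of these cell types in the changes was not tested. Without any 1 array the D3 change of Cyp1a1 ranged from 4.67 to 6.15. On the 2 liver slides, each with 2 mice of both groups, Cyp1a1 was higher at D3 by 6.39 and by 4.13.

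The log2 ratio of Cyp1a2, the constitutive hepatic member, did not pass the test at any dose in liver. After 6.28 ± 0.13 at D0 it was 6.44 and 6.33 in low-dose mice 8 and 9, 6.29, 6.30 and 6.69 in medium-dose mice 11 to 13, and 5.81, 6.35, 6.44 and 6.34 in high-dose mice 16, 17, 19 and 20. The groups overlapped, and mouse 16 was the lowest of all livers. The change was 0.11 at D1, 0.15 at D2 (limma adjusted p = 0.77) and -0.04 at D3 (limma adjusted p = 0.97), with 95% intervals of -0.19 to 0.48 at D2 and -0.35 to 0.27 at D3. The sign at D3 turned without mouse 16, to 0.10.

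Beneath this ratio, both of its channels differed between the groups. The raw red signals of Cyp1a2 were 13373.5, 10783, 14790.5 and 13764 intensity units in vehicle livers 1 to 4. They were 56378 and 27612.5 in low-dose mice 8 and 9, 59425.5, 119815 and 87701 in medium-dose mice 11 to 13, and 111680, 89399, 53861 and 89787 in high-dose mice 16, 17, 19 and 20. All 9 dosed livers were brighter than all 4 vehicle livers, and no spot was flagged as saturated. The green signals, which came from the common reference RNA, were 353, 244, 375 and 265 in the vehicle livers. They were 1059.5 and 550 in the D1 livers, 1005.5, 1761.5 and 1372.5 in the D2 livers, and 1939, 1665.5, 1012 and 1085 in the D3 livers. Here too all 9 arrays of dosed livers exceeded all 4 vehicle arrays, although the reference RNA was labelled as the same for every array.

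With the red channel alone, scaled to the 75th percentile of each array, Cyp1a2 rose by 2.36 at D2 (SE 0.28, 5.15-fold, limma adjusted p = 0.028) and by 2.29 at D3 (SE 0.26, 4.89-fold, limma adjusted p = 0.011). The D1 change was 1.57 (SE 0.32, limma adjusted p = 1.00). This setting was chosen after the data had been seen. It called 0.0394% of liver probes at D2 and 0.0492% at D3. With quantile normalisation in place of the percentile, the changes were 2.28 and 2.22 and both were called. Within the 2 liver slides the red channel was higher at D3 by 2.67 and 1.90, and the green channel by 2.59 and 1.75. Red levels of Cyp1a1 and Cyp1a2 had a Pearson correlation of 0.94 over the 13 livers, against 0.05 for their log2 ratios, again as a description.

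The green channel of Cyp1a2 differed by 2.13 at D2 and by 2.17 at D3 (SE 0.27, 4.49-fold, limma adjusted p = 0.11). In the list of 22316 probes whose reference signal was well above background on every liver array, the D3 value ranked 1, where the 99th percentile was 0.25. Among the 364 kept probes whose red signal was over 20 times the green in liver, red and green changes at D3 had a Pearson correlation of 0.79 across probes, and Cyp1a2 was the 1 probe whose green change was above 1. Among the other 17291 probes the correlation was 0.25 and no green change was above 1. What moved the reference signal of Cyp1a2 was not tested, and whether hepatic Cyp1a2 transcript changed therefore depends on whether the ratio or the red channel is read.

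**Figure D2:**
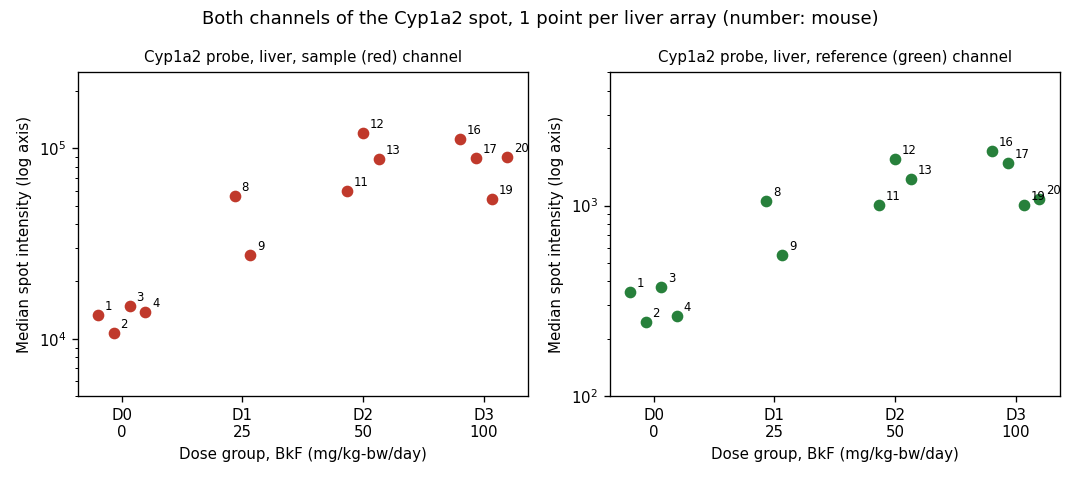
Raw median signal of the Cyp1a2 probe in the 13 liver arrays by dose group, on a log axis of intensity units, with the tissue sample (red channel) and the common reference (green channel) shown apart. Each point is 1 mouse with its number. Both channels are higher in all 9 dosed livers than in the 4 vehicle livers, which leaves their ratio near constant.

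For the other members in lung, Cyp1a1 rose by 6.0 at D2 and 6.61 at D3 in the red channel alone (limma adjusted p = 0.025 and 0.0042), and Cyp1b1 by 5.57 and 6.09 (limma adjusted p = 0.033 and 0.0072), where 0.00918% and 0.0184% of probes were called. With quantile normalisation of that channel, the D2 values of Cyp1a1 (6.22) and Cyp1b1 (5.74) were not called. The green signal of Cyp1a1 was well above background on 9 of 15 arrays in lung, 0 of 13 in liver and 1 of 14 in forestomach. In lung it ran from 29 to 37 intensity units at D0, with 0 of 4 arrays well above background, and from 48 to 87 at D3, with 4 of 4 (limma adjusted p = 1.00), and in each of the 4 slides it was higher at D3. That of Cyp1b1, which the reference expresses, was 0.55 higher at D3 than at D0 in lung (limma adjusted p = 1.00), and in liver and forestomach it differed by -0.07 and 0.04. In no tissue and at no dose did the green channel alone give a called probe (0%), although 371 to 1648 probes had an unadjusted p under 0.05.

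In forestomach no probe was called at any dose. Cyp1a1 was at 0.15 ± 0.44 at D0 (n = 4) and at 0.12, 1.93 and 0.13 in low-dose mice 7, 8 and 9. It was 2.65, 4.78, 1.48 and 0.64 in medium-dose mice 11, 12, 13 and 15, and 4.66, 3.42 and 2.08 in high-dose mice 16, 17 and 20. In this ratio all D2 and D3 samples lay above the vehicle samples, though mouse 15 did so by a small margin, and of the D1 mice only mouse 8 did. In the red channel scaled to the 75th percentile, mouse 15 (-1.26) lay below vehicle mice 1, 2 and 4 (-0.18, -0.88 and -0.93). The changes were 0.58 at D1 (SE 0.85), 2.24 at D2 (SE 0.79, limma adjusted p = 0.56) and 3.24 at D3 (SE 0.85, limma adjusted p = 1.00). Other settings gave 1.20 (the red channel alone) to 5.03 (the scanner software's ratio) at D2 and 1.82 to 6.26 at D3, none called. At D3 Cyp1a1 was the eighth of 25305 probes by p, 0% were called, and 557 had an unadjusted p under 0.05, with 1920 at D2 and 3070 at D1. It too had passed the filter on dim probes through the dosed groups.

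Cyp1b1 in forestomach was well above background on all 14 arrays. Its values were -0.84 ± 0.20 at D0 (n = 4), -1.51, -0.39 and -0.51 at D1, 0.25, 1.46, -0.41 and -0.33 at D2, and 0.40, 0.68 and 0.16 at D3. All samples at D2 and D3 were above the vehicle range, while low-dose mouse 7 was below it. The changes were 0.03, 1.08 (SE 0.37, limma adjusted p = 0.54) and 1.25 (SE 0.39, limma adjusted p = 1.00), and at D3 the 95% interval was 0.40 to 2.10. Neither the trend over dose nor the step from D2 to D3 gave a called probe in this tissue (0% each, with 712 and 585 probes at an unadjusted p under 0.05).

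The forestomach samples with little glandular RNA were unevenly spread over the groups, with 2 of 4 at D0, 0 of 3 at D1, 1 of 4 at D2 and 2 of 3 at D3. With the glandular marker level as a covariate the changes were 2.26 at D2 and 3.24 at D3 for Cyp1a1 and 1.08 and 1.25 for Cyp1b1. White fat markers were at 5.62 in the forestomach of high-dose mouse 16, which had the highest Cyp1a1 at D3, against 0.07 and 0.03 in mice 17 and 20, and at 3.53 in vehicle mouse 4. Liver markers were at 2.72, 2.57 and 3.28 in mice 2, 3 and 15, against at most 1.93 in the others. The part of fat and liver RNA in these values was not tested.

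Whether the effect of the high dose differed between tissues was tested in 1 fit over all 42 arrays. The change of Cyp1b1 was larger in lung than in forestomach by 4.89 (SE 0.90, limma adjusted p = 0.043), for which 0.0119% of probes (4 of 33498) were called. Against liver the difference was 4.07 (SE 0.87, limma adjusted p = 0.080), where 0.027% (10 of 37087) were called. When the mouse was fitted as a block, since the 3 tissues came from the same animals, that difference had an adjusted p of 0.045. The liver change in it starts from vehicle livers in which Cyp1b1 was not above background. The call against forestomach was kept in 2 of 9 other settings and in 1 of 15 fits that left out 1 array, with values of 4.17 to 5.09.

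For Cyp1a1 no difference between tissues was called. The high-dose effect in lung exceeded that in liver by 1.54 (SE 1.33) and that in forestomach by 3.56 (SE 1.38, unadjusted p = 0.014, limma adjusted p = 1.00), and liver exceeded forestomach by 2.02 (SE 1.38). The liver and forestomach effects in these differences start from vehicle groups with 0 of 4 and 1 of 4 arrays well above background, so their sizes depend on the background. Between liver and forestomach 0.00605% of probes (2 of 33079) were called, and Cyp1b1 differed there by 0.82 (SE 0.90). The signs of the Cyp1a1 values in lung against liver and forestomach turned with the background-subtracted ratio of the scanner software, to -4.71 and -1.89.

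**Figure D3:**
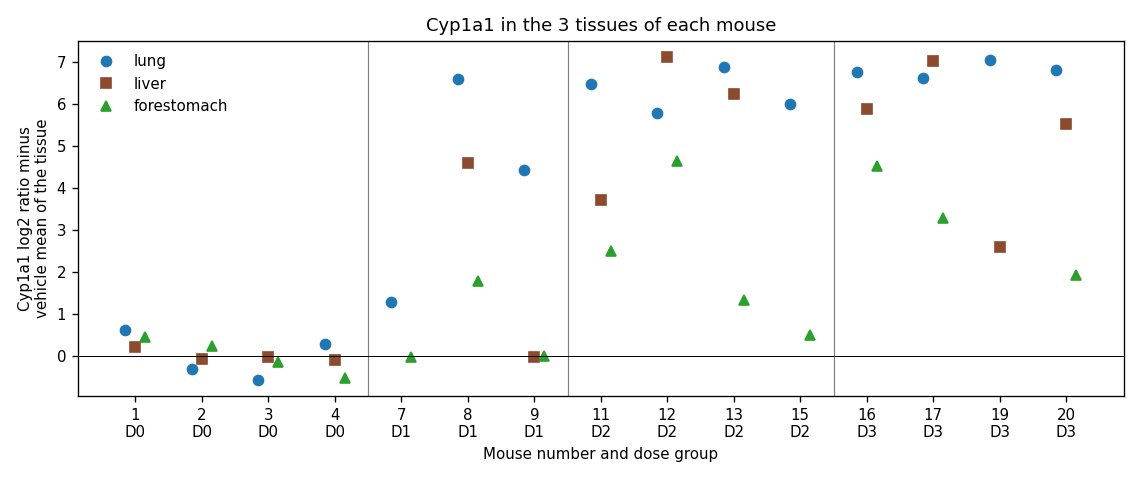
Log2 ratio of Cyp1a1 in lung, liver and forestomach of the same animals, as the difference from the vehicle mean of the tissue, with the mice on the horizontal axis ordered by dose group and 1 symbol per tissue. Mouse 8 is the highest of the low-dose mice in all 3 tissues, and high-dose mouse 19 has the highest lung and the lowest liver value of its group.

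The mice could be followed across tissues. Low-dose mouse 8 had the highest Cyp1a1 of its group in lung (9.28), liver (4.61) and forestomach (1.93), and the highest Cyp1b1 in all 3. Mouse 9 had 7.10 in lung but vehicle-like values of -0.02 in liver and 0.13 in forestomach. At the medium dose mouse 12 was the highest in liver and forestomach and the lowest in lung. At the high dose mouse 19 had the highest lung value (9.73) and the lowest liver value (2.62). So 1 mouse was the highest in all 3 tissues at the low dose, and no mouse was at the medium or the high dose.

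The log2 ratio of Cyp1a1 to Cyp1b1 within a sample was formed as the difference of their levels. Its absolute size depends on the reference RNA, and only differences between samples are read. In lung it was 5.22, 5.00, 4.11 and 4.37 at D0 and 5.06, 5.02, 5.49 and 5.78 at D3. The groups overlapped, and the difference of 0.66 did not pass the exact two-sided permutation test (p = 0.114). With the scanner software's ratio it turned to -2.10 and passed (exact permutation p = 0.0286). The low-dose lungs had 4.23, 5.24 and 6.16 and the medium-dose lungs 4.96, 4.86, 5.35 and 6.66, mice 9 and 15 being the highest of their groups.

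In liver neither gene was above background in the vehicle mice, so that the D0 ratio compares signals at the detection limit and no change of the balance can be read from it. The values were 2.96, 2.72, 2.69 and 2.56 at D0 and 7.00, 6.71, 3.97 and 6.01 at D3, and all D3 livers lay above all D0 livers. The difference of 3.19 from that background ratio had an exact two-sided permutation p of 0.0286, the smallest that 4 mice against 4 allow. The D1 livers had 5.84 (mouse 8) and 2.46 (mouse 9) and the D2 livers 4.59, 4.87 and 6.47. On the red channel alone the difference was 2.31, with the same p.

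In forestomach the ratio was 1.38, 1.42, 0.93 and 0.20 at D0, 1.63, 2.32 and 0.64 at D1, 2.41, 3.32, 1.89 and 0.97 at D2, and 4.26, 2.75 and 1.92 at D3. The D3 samples lay above all D0 samples. Cyp1a1 was above background in 1 of the 4 D0 samples. The difference was 1.99, and its exact two-sided permutation p of 0.0571 is the smallest that 3 mice against 4 allow, so that the test could not reach 0.05. On the red channel alone it was 0.55 with an exact permutation p of 0.4 and overlapping groups.

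**Figure D4:**
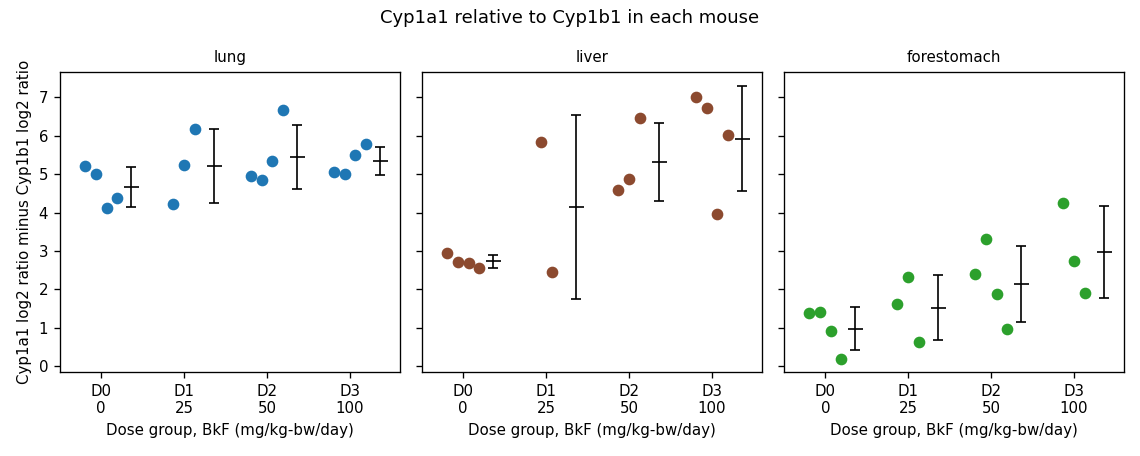
Log2 ratio of Cyp1a1 minus that of Cyp1b1 in each sample by dose group, in lung, liver and forestomach. Each point is 1 mouse and bars are group means with their SD. Lung stays between 4.11 and 6.66, while liver runs from 2.56 to 2.96 at D0 and from 3.97 to 7.00 at D3.

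The AhR pathway around the members was described with 33 genes, of which 32 had a probe. The first list holds the receptor and its partners and repressors, and 7 of its 8 genes were tested in each tissue, Arnt2 being too dim. Ahrr, the AhR repressor, was called in lung at D2 and D3 and was the 1 gene of the list called there by its brightest probe, with changes of 4.15 (SE 0.49, limma adjusted p = 0.0091) and 5.04 (SE 0.49, limma adjusted p = 0.0013). Its signal passed as well above background in 0 of 4 vehicle lungs and in all 11 dosed ones, so that it passed the filter on dim probes through the dosed groups and its fitted changes start from background. Its signal was at least 6.13-fold higher at D1, at least 11.5-fold at D2 and at least 21.2-fold at D3. A second, separate probe of Ahrr differed by 0.96 at D3 (limma adjusted p = 0.17).

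Tiparp, a poly-ADP-ribose polymerase known to be induced by AhR and to restrain it, rose with dose in lung by 1.66 per 100 mg/kg-bw/day (limma adjusted p = 0.033), as did Ahrr by 4.68 (limma adjusted p = 0.027). At D3 Tiparp differed by 1.67 (SE 0.29, limma adjusted p = 0.074), and its second probe rose by 2.00 (limma adjusted p = 0.0099). The receptor itself and its dimer partner were not called, with D3 changes in lung of -0.34 (SE 0.30) for Ahr and 0.41 (SE 0.13) for Arnt. A second probe of each differed by -0.11 (SE 0.16) for Ahr and by -0.08 (SE 0.11) for Arnt, neither called. In liver and forestomach 0 of the 7 genes were called. There Ahrr differed at D3 by 1.09 (SE 0.30, limma adjusted p = 0.35) and 1.23 (SE 0.24, limma adjusted p = 1.00), and in liver it was above background in all dosed mice and in 0 of 4 vehicle mice, at least 1.53-fold higher at D3.

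Among the other AhR target genes 0 were called in any tissue or direction, of 12 tested in lung and liver and 11 in forestomach. In lung 11 of 12 were higher at D3 and 1 was lower, with a median change of 0.51, against 0.0039 over all tested probes. Liver had 9 higher and 3 lower (median 0.38, against -0.0050 over all tested probes). Forestomach had 7 higher and 4 lower (median 0.06, against 0.0037 over all tested probes). Nqo1, a quinone reductase, had the largest value in lung, 1.65 at D3 (SE 0.32, limma adjusted p = 0.14). The largest value of this list in liver was higher, 3.34 at D3 and 5.65 at D2, neither called.

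The enzymes that work beside the CYP1 proteins, 12 genes tested in each tissue, gave 0 calls in either direction, with D3 medians of 0.08 in lung, -0.05 in liver and 0.06 in forestomach. Por, the reductase that passes electrons to all microsomal P450 enzymes, differed by 0.61 in lung (SE 0.19, limma adjusted p = 0.42, with 1 of the 4 D3 spots dropped as an outlier), 0.35 in liver and -0.10 in forestomach. Ephx1, the epoxide hydrolase that turns aromatic epoxides into dihydrodiols, differed by 0.31, -0.30 and -0.02. These counts can be read against the 0.0336% and 0.0525% of all probes called at D3 in lung and liver.

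**Figure D5:**
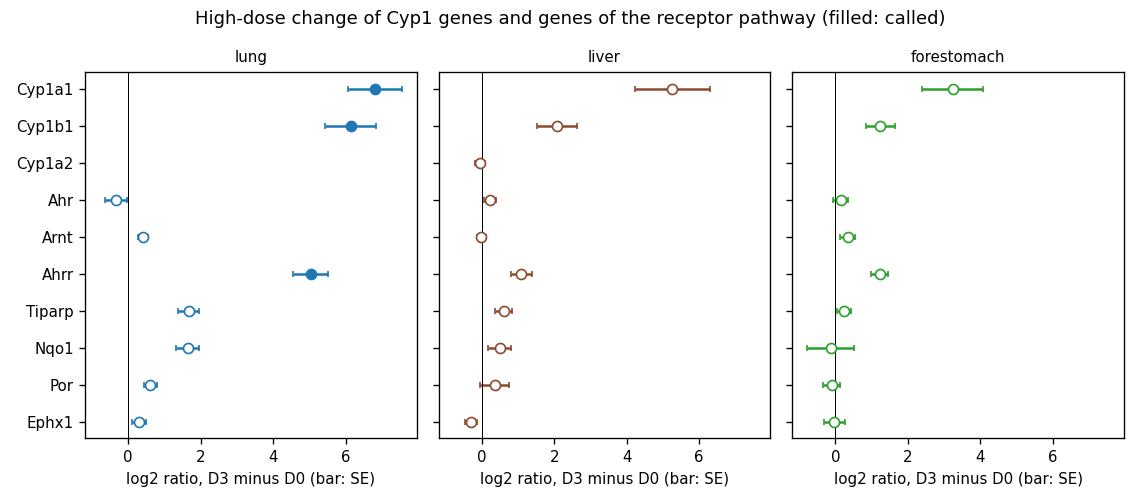
Change at the high dose against the vehicle group (log2, with its SE) for the members and 7 genes of the AhR pathway, filled where the change was called. Cyp1a2 was tested in liver alone. Cyp1a1, Cyp1b1 and Ahrr stand far to the right in lung, whereas Ahr, Arnt, Por and Ephx1 lie between -0.34 and 0.61 in all 3 tissues.

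The genes whose log2 ratios were most like those of a member were found by Pearson correlation over the arrays of a tissue, with 1 probe per named gene. They are a description, since the points share dose groups and arrays. Over 15 lungs and 15214 genes, Ahrr came first for Cyp1a1 (0.97) and for Cyp1b1 (0.99). For Cyp1a1 it was followed by Rpusd3, Lpar6, Kcnj10 and Neurl3 (0.87 to 0.91), and for Cyp1b1 by Lpar6, Tiparp, Limk1 and Nqo1 (0.90 to 0.92). Apart from Ahrr, none of these was called at D3 by its brightest probe, the one compared here, and their changes ran from 0.49 for Rpusd3 to 1.67 for Tiparp.

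Over 13 livers and 14488 genes, Tuba8, an alpha tubulin, was most like Cyp1a1 (0.95), with means of -3.07 at D0 and -0.20 at D3 (a change of 2.87, limma adjusted p = 0.072). Jaml, Ccpg1, Fam214b and Ccno followed with 0.93 to 0.94. The ratio of Cyp1a2 in liver was most like those of Ptbp2, Stc2, H2-M3, Cyp2a4 and Ddx24 (0.82 to 0.89), and their changes at D3 lay between -0.24 (Ddx24) and -0.02 (Cyp2a4). In forestomach, over 14 arrays and 13539 genes, Ahrr (0.85), Nkx2-3 (0.83), Tiparp (0.80), Nol11 and Nrf1 (both 0.79) were most like Cyp1a1. Ahrr was thus the first for Cyp1a1 in lung and in forestomach, and it was not among the first 5 for Cyp1a1 or Cyp1a2 in liver.

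Across all tissues and doses, the order of the Cyp1a1 group means ran from 9.48 in high-dose lung over 8.96 in medium-dose and 6.78 in low-dose lung, 5.71 in medium-dose and 5.28 in high-dose liver, and 3.39 in high-dose forestomach down to 0.02 in vehicle liver. Each of the 12 groups overlapped with the next in this order. Vehicle lung (2.67) lay above medium-dose forestomach (2.39), so that the level in lung without BkF was within the range of forestomach after the medium dose, from 0.64 to 4.78. For Cyp1a2 the 4 liver groups came first, and the lowest liver value (5.81) was far above the highest value elsewhere (0.58).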

How the data were processed

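The authors hybridised each tissue RNA (Cy5) with universal mouse reference RNA (Cy3) on 2-colour Agilent arrays, with no dye swap, and deposited 1 scanner file per array. Per the file headers it holds linear red and green median intensity, beside a log10 ratio made by the Feature Extraction software (version 11.0.1.1 on liver arrays, 10.7.3.1 on the others). The authors also deposited processed log2 ratios (LOWESS on intensities without background subtraction). The 13 liver columns among them did not follow the scanner values probe by probe, so these ratios were used for lung and forestomach only, as an alternative.

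Here, medians without background subtraction were turned into log2 ratios and loess-normalised array by array (R 4.3.3, limma 3.58.1). A constant dye bias cancels between groups but not in a single ratio. Controls and outlier-flagged spots were dropped, and replicate spots averaged. The filter on dim probes asked for a red signal well above background on 3 arrays in lung, 2 in liver and 3 in forestomach (the size of the smallest dose group), which left 32697, 30460 and 25305 probes. The number of mice limits the precision. The authors used MAANOVA; limma's moderated linear model stood in for it here, fitted to the 4 dose groups of a tissue together, two-sided p-values adjusted by Benjamini-Hochberg over all probes of the fit, and limits of 0.05 and 1.5-fold (for the trend, 0.05 alone). Differences between tissues were tested over all 42 arrays, and the Cyp1a1 to Cyp1b1 ratio by an exact two-sided permutation test. For a group with no array well above background, the fold is a bound ("at least") from the red channel after loess and Aquantile normalisation, with each dim array at the higher of its own signal and the lowest signal well above background. They are open to dye bias. The same bound was formed with each array scaled to its 75th percentile, which was chosen after seeing the data, and the lower of both is given.

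The members and lists (3 pathway lists and 11 marker lists) were chosen with earlier results of these data known. The 3 members were reported called or not, with 7 fixed pathway genes, every called pathway gene and the 5 genes most like a member in a tissue. Probes were named through RefSeq, which also gave the promoters. Scripts were tested on simulated data, and figures were drawn with matplotlib 3.10.9 under Python 3.11.15. Mouse numbers are shared by the tissues of 1 animal, and deviations from group means had a consensus correlation of 0.06 within mice. Alternatives were another background correction, normalisation, filter, set of samples or block, each array left out in turn, and, chosen after seeing the data, either channel alone.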

Additional observations from a re-analysis of the deposited data

Results flagged for a closer look

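In the D3 livers, mouse 16 (log2 ratio of Cyp1a2 5.81) stood apart from the other 3, its gap to the nearest being 0.839 of the group's range, just above Dixon's 95% critical value for 4 samples. Of 23 groups of 4 looked at, this was the 1 that passed the limit, and chance flags about 1 in 20 groups.

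The D3 effect on Cyp1b1 differed between lung and forestomach by 4.89 (limma adjusted p = 0.043). That call was kept in 2 of 9 other settings and in 1 of 15 fits that left out 1 array.

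The reference channel, which is outside the main measurement, was 0.55 higher for Cyp1b1 in D3 lungs than in D0 lungs, rank 10 of 28784 probes, and 2.17 higher for Cyp1a2 in D3 livers than in D0 livers, rank 1 of 22316. Neither was called (limma adjusted p = 1.00 and 0.11).

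Read on the red channel alone, Cyp1a2 in liver was higher than in the vehicle group by 2.36 at D2 and by 2.29 at D3 (limma adjusted p = 0.028 and 0.011).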

How the results depend on the processing

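Of 922 alternative values for the members and the Cyp1a1 to Cyp1b1 ratio, 815 kept their direction and their side of the threshold, 61 kept their direction and lost a call, 14 kept it and gained one, and 32 turned sign, of which 3 were called. The causes were not tested. With normexp background correction, the trend of Cyp1a1 in lung was called (6.29) and the D3 effect on Cyp1b1 in lung against forestomach (4.85) was not.

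With median centring in place of loess, Cyp1a1 (5.35) and Cyp1b1 (5.20) at D2 in lung, the trend of Cyp1b1 (5.30), its D3 effect in lung against forestomach (4.17) and the vehicle differences of Cyp1a1 in lung against forestomach (1.84) and of Cyp1b1 in liver against forestomach (-0.62) were not called. Cyp1a2 in liver turned to 0.35 at D3 and 0.34 for the trend, its D3 effect to -0.0615 in lung against liver and 0.30 in liver against forestomach, and Cyp1b1 in forestomach at D1 to -0.18. Called probes numbered 0 (D2) and 3 (D3) in lung and 31 and 67 in liver.

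With the scanner software's ratio, which is background-subtracted, Cyp1a1 at D2 (4.05) and D3 (4.37), Cyp1b1 at D2 (5.80), its trend (6.09) in lung and its effect in lung against forestomach (5.07) were not called, and the vehicle difference of Cyp1b1 in lung against liver was (3.82). Signs turned for Cyp1a2 in liver at D1 (-0.0314) and D2 (-0.10), for the D3 effect on Cyp1a1 in lung against liver (-4.71) and forestomach (-1.89) and for the Cyp1a1 to Cyp1b1 ratio in lung (-2.10, exact permutation p = 0.0286). Called probes numbered 1, 1 and 3 at D1, D2 and D3 in lung and 9 at D3 in liver.

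The effect on Cyp1b1 in lung against forestomach was not called with the authors' values (4.80), with no filter on dim probes, with 2 tissues in the fit (4.89 in both) or with the red channel (4.82). The trend of Cyp1b1 in lung was not called with the slide as a block (5.86), no filter (5.80) or the red channel (5.79). The slide as a block called 11 and 26 probes in lung at D2 and D3 and 1 and 10 in liver, and turned Cyp1b1 in forestomach at D1 to -0.33.

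The red channel called 3 and 6 probes in lung at D2 and D3. It gave 2.36 for Cyp1a2 in liver at D2, of the same sign and now called. It turned Cyp1a2 in liver to 2.29 at D3 (called) and 2.16 for the trend, and its D3 effect to -2.30 in lung against liver and 2.49 in liver against forestomach. Quantile normalisation of that channel gave 2.28 and 2.22 for Cyp1a2, lost Cyp1a1 (6.22) and Cyp1b1 (5.74) at D2 in lung, and called 1 probe in lung and 20 in liver at D2. Fits of the 2 groups compared called Cyp1a1 (5.26) and Cyp1b1 (2.07) in liver at D3, with 2, 4 and 46 probes in liver at D1, D2 and D3 and 333 in forestomach at D1.

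With the mouse as a replicate block, which pairs the tissues of 1 animal, or the slide as a random block, the D3 effect on Cyp1b1 in lung against liver was called (4.07, limma adjusted p = 0.045 and 0.038), and no other member's call changed.

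Leaving out 1 array at a time gave, in lung, 2.86 to 5.52 for Cyp1a1 at D1, 6.08 to 6.49 at D2 and 5.90 to 6.80 for its trend, 5.26 to 6.001 for Cyp1b1 at D2 and 5.34 to 6.23 for its trend, with 0 to 1, 0 to 8 and 3 to 26 probes called at D1, D2 and D3. In liver it gave -0.0357 to 4.59, 4.98 to 6.68 and 4.67 to 6.15 for Cyp1a1 at D1, D2 and D3 and -1.42 to 0.45 for D3 against D2, 2.18 to 3.74 for Cyp1b1 at D2, -0.11 to 0.10 for Cyp1a2 at D3 and -0.12 to 0.10 for its trend, with 0 to 5, 0 to 159 and 2 to 22 probes called. In forestomach it gave -0.019 to 0.88 for Cyp1a1 and -0.17 to 0.39 for Cyp1b1 at D1, -0.0481 to 0.58 for Cyp1b1 from D2 to D3, and 0 to 1 probes called at D1. Between tissues, the D3 effect ranged from -0.0306 to 0.18 for Cyp1a2 in lung against liver, -0.16 to 0.0661 in liver against forestomach and 4.68 to 5.09 for Cyp1b1 in lung against forestomach, and the vehicle difference of Cyp1a1 from 2.32 to 2.72 in lung against forestomach and -0.31 to 0.0251 in liver against forestomach. The ratio of Cyp1a1 to Cyp1b1 in liver ranged from 2.83 to 3.84, where 3 mice against 4 cannot reach an exact p of 0.05. A lone mouse left in a group was assumed to vary like the others.

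Not run were another probe or the mean of probes, since each member has 1 probe, and the authors' values in liver. Signals near background limit Cyp1a1 and Cyp1b1 in vehicle liver.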
